A study of Homo sapiens with 4 samples.

Results

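Protein prenylation enzymes are the enzymes that attach an isoprenoid lipid to proteins and then finish the lipid-bearing end. The genes described are FNTA, FNTB, PGGT1B, RABGGTA, RABGGTB, CHM, CHML, RCE1, ICMT and ZMPSTE24, chosen by name and not by their values. Every probe carrying 1 of these names was taken, which gave 13 probes of 10 genes among 34127 gene probes and 27274 gene names on the array. The 4 groups were LNCaP and PC3 cells, each with ATO and as a control, with 1 array per group. ATO is atorvastatin, a statin, a drug that lowers cholesterol synthesis by blocking the mevalonate pathway, and was given at 10 µM for 24 h. Both lines are established human prostate cancer lines, LNCaP being dependent on androgen for growth and PC3 independent of it. All groups grew in RPMI medium with fetal bovine serum, and the labels call the controls untreated without naming a vehicle. Total RNA was labelled with a single dye, so each array gives an intensity on a linear scale and not a ratio. No group had a replicate, so a difference between arrays within a line has no replicate check and no p-value, and precision is limited by how few arrays there are.

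Prenylation uses farnesyl diphosphate and geranylgeranyl diphosphate, which are products of the mevalonate pathway that a statin blocks. Farnesyltransferase and geranylgeranyl transferase type I share the alpha subunit encoded by FNTA and differ in the beta subunit, FNTB in the former and PGGT1B in the latter, and both act on a cysteine near the end of proteins such as Ras and the nuclear lamins. Rab GTPases are instead modified by Rab geranylgeranyl transferase, made of the RABGGTA and RABGGTB products, once a Rab escort protein (CHM or its paralog CHML) presents them. The protease RCE1 then removes the last residues of proteins with a CAAX end, the methyltransferase ICMT caps the exposed cysteine, and the protease ZMPSTE24 cleaves farnesylated prelamin A on its way to mature lamin A.

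The markers of the lines went with the labels, with 5 of 5 LNCaP markers (KLK3 among them) higher in LNCaP control and 5 of 5 PC3 markers (CAV1 and VIM among them) higher in PC3 control. KRT8 and KRT18, keratins of epithelial cells, were well above background on all 4 arrays. Of the markers of fibroblasts and blood cells, DCN was well above background on no array, PTPRC on LNCaP control alone, and COL1A1 on all 4. Between 48.5% and 52.9% of the gene spots were called well above background by the scanner software, and the 75th percentile to which each array was scaled lay between 496.8 and 588.2 intensity units. Copies of a probe on 1 array differed by a median SD of 0.0867 to 0.101 on the log2 scale, or 0.13 for a ratio of 2 arrays. All 4 arrays lay on 1 slide at different positions and came from 1 scan, so position and group cannot be told apart. The local background, the brightness of the glass around a spot, was high (over 3 scaled MADs above the median of the array) around 0.348% of the gene spots in LNCaP control and 14.1% with ATO, and around 8.35% in PC3 control and 15.3% with ATO. In cell cultures measured in bulk, fewer cells of a kind and less RNA per cell cannot be told apart.

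Each of the 13 probes was a single spot of 60 bases with no outlier call. The probes below are those on which the readings turn, and each is shown by its first 30 bases with G and C in capitals and A and T in lower case. The ICMT probe had the lowest share of G and C, 16.7% against a median of 43.3% over all probes, and 0.044% of probes had a lower share. The CHM and CHML probes are shown because these genes are paralogs, and the RABGGTB probes because they gave different ratios.
ICMT: aGtaattattCtaCtCttCtttttaCataa
CHM, brighter probe: aaCaatGGaGGaGataGtttGtGGtCCatt
CHM, dimmer probe: CtGCattGtaCtGaaCGttGtttCCCtttt
CHML: GtGtaGaaGaCtataaaaaGGGCtttataa
RABGGTB, brighter probe: tCatCGCatGaataGaGaaGaGattCtGGC
RABGGTB, dimmer probe: CttCCCtaaaGataattGGaaGaCttCatt
Over their whole length, the CHML probe matched the brighter CHM probe at no more than 22 of 60 bases and the dimmer CHM probe at no more than 20, in the best alignment without gaps. On the hg18 build of the file headers, the ICMT probe lies at chr1:6203903-6203962 on the minus strand and the CHML probe at chr1:239859170-239859229 on the minus strand. The brighter CHM probe lies at chrX:85003821-85003880 and the dimmer at chrX:85110826-85110885, both on the minus strand, 107005 bases apart and designed on different CHM transcripts. The RABGGTB probes lie on the plus strand, the brighter at chr1:76027509-76027568 and the dimmer at chr1:76032391-76032450. Exon and untranslated region annotation of that build was not used here.

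In LNCaP cells none of the 11 probes that could be compared differed 1.5-fold between LNCaP ATO and LNCaP control (0 of 11), against 4.82% of all 17172 probes compared. Their log2 ratios ran from -0.23 to 0.57 with a median of -0.03, beside a median of 0.01 and an interquartile range of -0.10 to 0.12 over all probes. The spread of the ratios was not smaller than that of all probes (SD 0.25 for both), and a count of 0 among so few probes is near the share of all probes. In PC3 cells 1 of 13 probes, that of ICMT, was past 1.5-fold, against 18.6% of all 17056 probes compared (8.28% higher and 10.3% lower). The 12 probes measured on both PC3 arrays had log2 ratios of -0.40 to 0.35 with a median of -0.10, beside 0.01 and an interquartile range of -0.23 to 0.24 over all probes. The SD of these 12 ratios, ICMT not among them, was 0.25, against 0.44 over all probes.

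**Figure D1:**
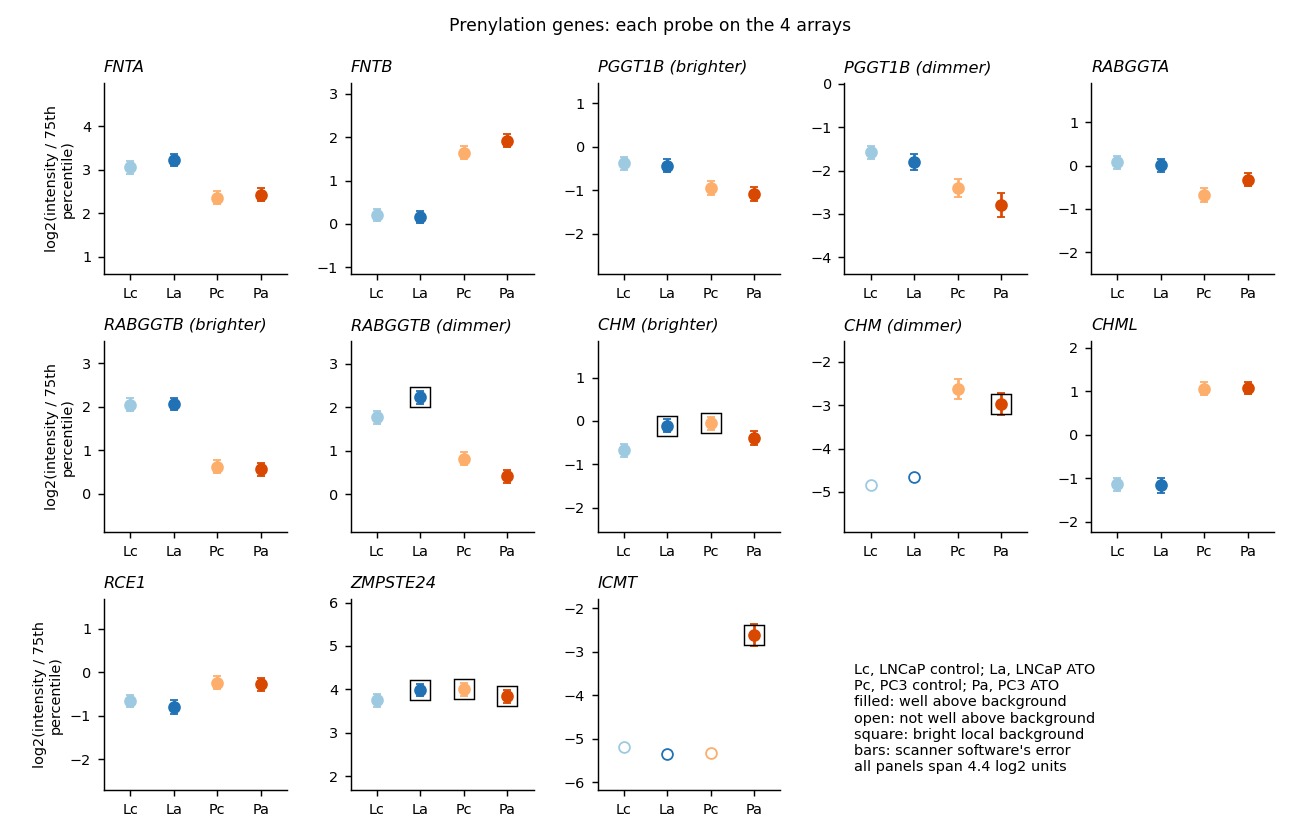
Log2 of the scaled intensity, each array divided by its 75th percentile (vertical axis), for each of the 13 probes on the 4 arrays, with the scanner software's error as bars. Open circles mark probes not well above background and squares mark a bright local background. FNTB, CHML and RABGGTB differ between the lines more than between ATO and control, and the ICMT probe is well above background in PC3 ATO alone.

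FNTA, the alpha subunit that farnesyltransferase and geranylgeranyl transferase type I share, had intensities of 4130 without and 4983 with ATO in LNCaP cells, and of 3016 without and 3065 with ATO in PC3 cells. Its probe lies at chr8:43059872-43059931 on the plus strand. Both LNCaP values were above both PC3 values, and within each line ATO and control differed by less than the combined error of the spots, with log2 ratios of 0.17 ± 0.20 in LNCaP and 0.07 ± 0.20 in PC3. Here and below the value after ± is the error estimate of the scanner software for a single spot, combined over both arrays, and it holds no variation between cultures.

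FNTB, the beta subunit that makes the enzyme a farnesyltransferase, read 573.4 in the LNCaP control and 596.3 with ATO, and 1834 in the PC3 control and 2156 with ATO. Its probe lies at chr14:64598767-64598826 on the plus strand. The 2 PC3 values stood well above the 2 LNCaP values. The log2 ratio of ATO to control was -0.04 ± 0.21 in LNCaP and 0.28 ± 0.20 in PC3, and neither reached 1.5-fold. With spike-in scaling the PC3 ratio came to -0.05.

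PGGT1B, the beta subunit of geranylgeranyl transferase type I, had 2 probes on the minus strand, the brighter at chr5:114574945-114575004 and the dimmer at chr5:114575793-114575852. The brighter probe gave 380.6 and 392.5 in LNCaP (control, then ATO) and 303.6 and 267.1 in PC3, and the dimmer gave 166.0, 151.7, 111.4 and 81.87 in the same order. The probes ranked the lines alike, with both LNCaP arrays above both PC3 arrays after scaling. All 4 log2 ratios of ATO to control were below 0, at -0.06 ± 0.21 and -0.23 ± 0.24 in LNCaP and at -0.14 ± 0.22 and -0.40 ± 0.34 in PC3 for the brighter and the dimmer probe. Of these, the PC3 ratio of the dimmer probe alone exceeded its error. The signs were not kept under every scaling: the brighter probe was at 0.06 in PC3 when the median of the array was used, and the dimmer at 0.07 in LNCaP with normexp background correction.

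RABGGTA, the alpha subunit of Rab geranylgeranyl transferase, read 522.2 without and 534.6 with ATO in LNCaP, and 367.2 without and 452.8 with ATO in PC3. Its probe spans chr14:23807215-23807444 on the minus strand, 230 bases for a probe of 60, so its bases are not contiguous in the genome. The ratio was -0.07 ± 0.21 in LNCaP and 0.35 ± 0.21 in PC3, the latter a 1.28-fold higher level with ATO. With spike-in scaling the PC3 ratio came to 0.01. Local background was not bright around this spot on any array.

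RABGGTB, the catalytic beta subunit of the same enzyme, gave different readings at its 2 probes, whose sequences are printed above. The brighter probe read 2054 in untreated and 2227 in treated LNCaP, and 904.6 in untreated and 838.6 in treated PC3, with log2 ratios of 0.02 ± 0.20 and -0.06 ± 0.21. The dimmer probe read 1697, 2498, 1035 and 757.4, with log2 ratios of 0.46 ± 0.20 in LNCaP and -0.40 ± 0.21 in PC3. By the dimmer probe, then, ATO went with a 1.37-fold higher level in LNCaP and a 1.32-fold lower level in PC3, neither past 1.5-fold, and by the brighter probe with almost none. The dimmer probe sat in a bright area of the LNCaP ATO array, where its local background was 149.5 against 101.5 in LNCaP control and 16 of its 24 neighbouring spots were also bright. None of the 11 neighbours that could be compared was 1.5-fold higher there (0 of 11). The dimmer probe, at 1.37-fold, did not reach that threshold either, so this count cannot show a shift of like size. The part of the background in its ratio was not tested. Around the brighter probe no array had a bright background.

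CHM encodes Rab escort protein 1, whose loss causes choroideremia. Its brighter probe read 310.8 in untreated LNCaP and 495.0 with ATO, and 566.8 in untreated PC3 and 433.5 with ATO. In LNCaP the log2 ratio was 0.57 ± 0.21, or 1.49-fold higher and just under the threshold, and -0.34 ± 0.22 in PC3. Local background around this spot was 117.0 in LNCaP control and 254.5 in LNCaP ATO, where all 24 neighbours were bright and 6 of the 17 that could be compared (35.3%) were at least 1.5-fold higher with ATO. In PC3 it was the control array that was bright there, with a local background of 128.0 against 86.0 with ATO. The dimmer CHM probe was not well above background in LNCaP (17.46 in control and 21.07 with ATO), so no ratio was formed, and in PC3 it read 95.20 in control and 72.44 with ATO, a log2 ratio of -0.35 ± 0.34 that came to 0.04 with normexp background correction. At the dimmer probe it was the PC3 ATO array that was bright, with a local background of 124.5 against 110.0 in PC3 control. The part of the background in the CHM ratios was not tested.

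CHML encodes Rab escort protein 2, the paralog of the CHM product. Its intensity was 225.8 without and 236.6 with ATO in LNCaP, against 1224 without and 1198 with ATO in PC3. The level differed between the lines far more than with the treatment, with log2 ratios of ATO to control of -0.03 ± 0.22 in LNCaP and 0.02 ± 0.21 in PC3. No array had a bright background at this spot.

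RCE1, the protease that trims the CAAX end, read 313.8 in untreated and 305.1 in treated LNCaP, and 497.3 in untreated and 469.2 in treated PC3, at a probe at chr11:66370222-66370281 on the plus strand. The log2 ratios of -0.14 ± 0.21 and -0.04 ± 0.21 were within the error in both lines. ZMPSTE24, the prelamin A protease, read 6689, 8443, 9405 and 8153 in the same order at chr1:40532164-40532223 on the plus strand. For ZMPSTE24 LNCaP gave a log2 ratio of 0.24 ± 0.20 and PC3 one of -0.16 ± 0.20, and 3 of the 4 arrays, all but LNCaP control, had a bright background at that spot.

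ICMT, the methyltransferase of the last step, was the probe past 1.5-fold in PC3. Its intensity was 13.59 in untreated LNCaP, 12.94 in treated LNCaP and 14.63 in untreated PC3, not well above background on any of these, and 92.23 in PC3 ATO, where it was. With PC3 control known only as a bound, PC3 ATO was at least 1.83-fold higher, the bound being set by the dimmest probe well above background in PC3 control. The local background at the spot was 248.0 in PC3 ATO against 79.5 in PC3 control, all 24 neighbouring spots were bright in PC3 ATO and none (0) in PC3 control, and 6 of the 23 neighbours that could be compared (26.1%) were at least 1.5-fold higher. Without the probes on bright areas, 0 of 9 prenylation probes were past 1.5-fold in PC3. That count was fixed in advance, since ICMT was the only probe past 1.5-fold and was itself left out. How much of the ICMT reading came from the glass was not tested, and ICMT had no other probe.

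**Figure D2:**
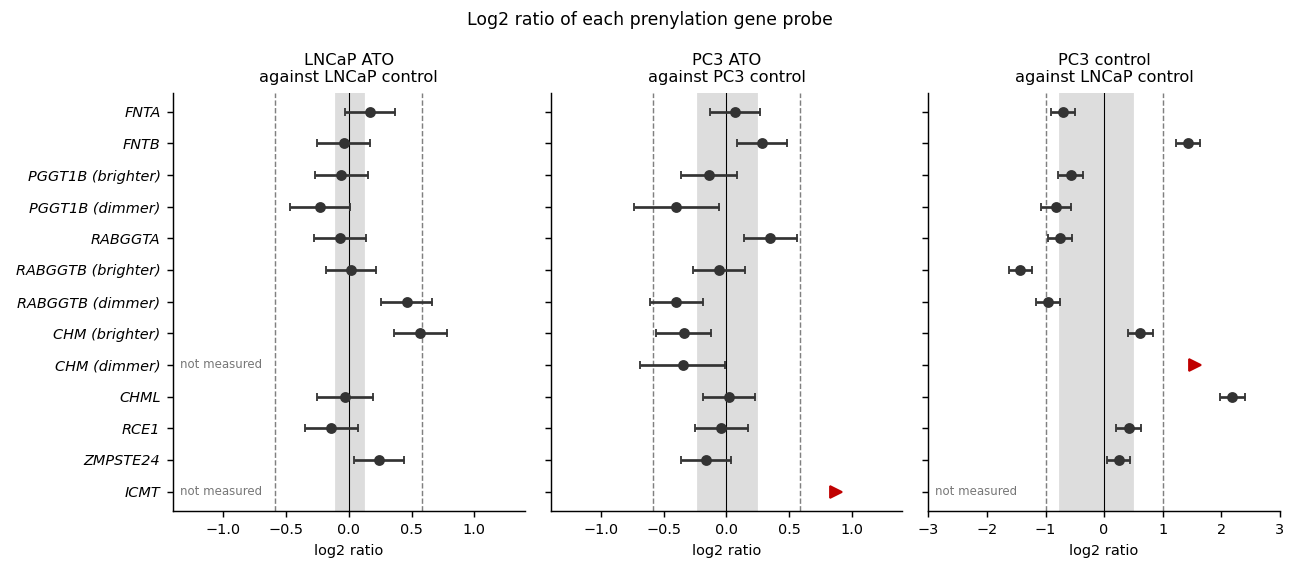
Log2 ratio (horizontal axis) of each probe for ATO against control in LNCaP and in PC3 and for PC3 control against LNCaP control, with the scanner software's combined error as bars. Grey bands hold the middle part of all probes (the interquartile range), dashed lines the 1.5-fold or 2-fold threshold, and triangles lower bounds. No LNCaP probe passes the threshold, ICMT alone does in PC3, and 4 probes do between the untreated lines.

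The local background went along with the larger ATO ratios in LNCaP. There 3 of 11 measured ratios exceeded their error, those of CHM (brighter probe), RABGGTB (dimmer probe) and ZMPSTE24, and these were also the 3 probes with a bright background on either array. The other 8 probes lay between -0.23 and 0.17 with a median of -0.05. In size, the -0.23 ± 0.24 of the dimmer PGGT1B probe nearly equalled the 0.24 ± 0.20 of ZMPSTE24. The match of all 3 thus rests in part on the error used as a cutoff. In PC3 6 of 12 measured ratios exceeded their error, of which 2 (both CHM probes) had a bright background. The bright array was PC3 control for the brighter CHM probe and PC3 ATO for the dimmer. The 9 probes without a bright background lay between -0.40 (PGGT1B and RABGGTB, dimmer probes) and 0.35 (RABGGTA), with a median of -0.04. The part of the local background in these ratios was not tested. How many of all probes exceeded their error was not counted, so the 3 of 11 and 6 of 12 have no share beside them. Taken without sign, the ratios of all probes had a median of 0.11 for LNCaP and 0.24 for PC3. Errors of the prenylation probes ran from 0.20 to 0.24 and from 0.20 to 0.34. In PC3, then, a ratio of ordinary size could exceed its error.

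**Figure D3:**
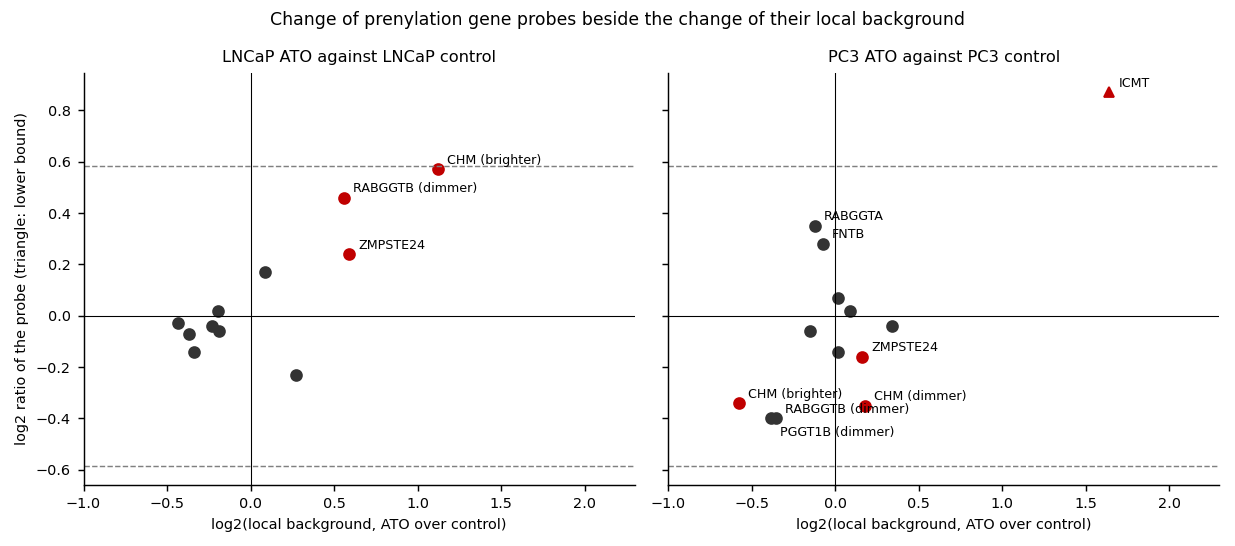
Log2 ratio of ATO to control for each probe (vertical axis) against the log2 ratio of the local background at its spot (horizontal axis), in LNCaP and in PC3. Red marks a bright background on either array, the triangle is the lower bound of ICMT, and dashed lines show 1.5-fold. In LNCaP the 3 red points are CHM, RABGGTB and ZMPSTE24, with ratios of 0.57, 0.46 and 0.24, and in PC3 the ICMT spot has the greatest rise in background.

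Between the lines, the difference of the responses (PC3 minus LNCaP, log2) was within ±0.17 for 6 of 11 probes, those of FNTA, PGGT1B (both probes), RABGGTB (brighter probe), CHML and RCE1. It was 0.33 ± 0.29 for FNTB, 0.42 ± 0.30 for RABGGTA and -0.39 ± 0.29 for ZMPSTE24. For the brighter CHM probe it was -0.91 ± 0.30 and for the dimmer RABGGTB probe -0.86 ± 0.29. CHM, RABGGTB and ZMPSTE24 at these probes are the 3 described above with a bright background in LNCaP ATO. With 1 array per group none of these differences was tested.

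The untreated lines differed more than ATO and control did. At 2-fold, 4 of 12 prenylation probes differed between PC3 control and LNCaP control, against 38.9% of all 19006 probes compared (20.1% higher and 18.8% lower in PC3), so their share was near that of all probes. CHML was 4.58-fold higher in PC3 (log2 2.19 ± 0.21) and FNTB 2.70-fold higher (log2 1.43 ± 0.20). The dimmer CHM probe was at least 2.94-fold higher in PC3, and the brighter CHM probe 1.54-fold (log2 0.62 ± 0.21), with a bright background in PC3 control. RABGGTB was 2.69-fold higher in LNCaP by its brighter probe and 1.94-fold, short of the threshold, by its dimmer one. The remaining ratios were smaller, at -0.70 for FNTA, -0.75 for RABGGTA, -0.57 and -0.82 for the 2 PGGT1B probes, 0.42 for RCE1 and 0.25 for ZMPSTE24. CHML, FNTB and CHM (both probes) were higher in PC3, and FNTA, PGGT1B, RABGGTA and RABGGTB (all probes) higher in LNCaP, under each of the 8 settings of scaling, correction or outlier handling, FNTB at 0.99 (just under 2-fold) when arrays were scaled to their median, while RCE1 (-0.02) and ZMPSTE24 (-0.19) turned sign with that scaling. PC3 control is shared by this comparison and by that of ATO in PC3.

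With the lines taken as replicates of the treatment, limma with cell line as a block had 1 residual degree of freedom. None of the prenylation probes it took in (0 of 11) and none of all 14675 probes (0, or 0.0%) had an adjusted p under 0.05 after Benjamini-Hochberg adjustment, and at an unadjusted p under 0.05 there were 667 probes (4.55%) with 0 prenylation probes among them. The smallest adjusted p of a prenylation probe by limma was 0.756, for the dimmer PGGT1B probe, with a mean log2 ratio of -0.31 (SE 0.14), below 0 in 2 of 2 lines. For CHML limma gave a mean of -0.01 (SE 0.13) and for the brighter CHM probe, whose ratios had opposite signs, 0.12 (SE 0.28). A test with so few arrays does not show that the genes did not change.

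The genes on either side of prenylation were read from 3 lists. The isoprenoid supply list held 13 genes, those from acetoacetyl-CoA to farnesyl, geranylgeranyl and longer diphosphates together with FDFT1, which uses farnesyl diphosphate. In LNCaP 7 of its 16 probes were at least 1.5-fold higher with ATO and 0 lower, against 2.75% and 2.07% of all probes. The median log2 ratio was 0.33. FDFT1 was among the higher probes in each line, at 0.94 in LNCaP and 0.96 in PC3. In PC3, 7 of 16 were higher and 2 lower, against 8.28% and 10.3% of all probes, with a median of 0.50, and 5 higher and 2 lower once bright areas were left out. FDPS, which makes farnesyl diphosphate, had ratios of 0.54 and 0.49, short of the threshold in both lines. GGPS1, which makes geranylgeranyl diphosphate, read 409.4 in LNCaP control and 479.9 in LNCaP ATO (log2 ratio 0.13 ± 0.21, with a bright background) and 145.4 in PC3 control and 220.0 in PC3 ATO (0.65 ± 0.25).

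Among the other genes of this list, in LNCaP HMGCS1 (HMG-CoA synthase) had a log2 ratio of 1.86, MVD of 1.01 and IDI1 (isopentenyl diphosphate isomerase) of 0.94. In PC3 MVD was at 0.87 with a bright background, IDI1 at 0.39 and FDFT1 (squalene synthase, which draws farnesyl diphosphate into sterols) at 0.96. PDSS1, which builds the tail of coenzyme Q from the same precursors, accounted for both lower probes in PC3, at -0.65 and -0.74. The prenyltransferases that consume these lipids had ratios between -0.40 and 0.46 in the 2 lines. The PC3 count of the supply list rested on the scaling: 10 were higher when arrays were scaled to their median and 1 when scaled to spike-in controls, and the lower probes numbered 0 and 3 under these settings, so neither PDSS1 call held with median scaling.

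The carriers and turnover enzymes of prenylated proteins (PDE6D, palmitoyltransferases, prenylcysteine oxidases and others, 18 of 19 genes on the array) lay near the median of all probes. In LNCaP 0 of 27 probes passed 1.5-fold, with a median of 0.03, and the largest ratio, 0.48 for ZDHHC9, had a bright background. In PC3 2 of 27 were higher and 0 lower, near the 8.28% of all probes that were higher, with a median of 0.06. RAP1GDS1 was 1.56-fold higher with a bright background. RABAC1, a prenylated Rab acceptor, stood at 0.58, just short of the threshold. With spike-in scaling 0 probes of this list were higher and 3 lower in PC3.

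Of the substrates, 43 genes of prenylated proteins, 1 of 57 probes was higher and 1 lower in LNCaP, with a median of 0.06. Over all probes 2.75% were higher and 2.07% lower there, so these counts were near the share of all probes. The higher count was 0 with normexp correction. It was also 0 without bright areas, where the higher probe, of RHOB, was itself left out. In PC3 7 of 56 were higher and 2 lower, with a median of 0.28, against 8.28% and 10.3% of all probes. RHOB, a GTPase that can carry either lipid, went from 1292 to 13250 in PC3, 10.6-fold higher, and its other probe gave the same fold. In LNCaP RHOB went from 2750 to 5011 (log2 ratio 0.77 ± 0.20, with a bright background) at its brighter probe and the other probe gave 0.29. RRAS was 2.01-fold and RHOA 1.71-fold higher in PC3, and LMNB1 (lamin B1, a farnesylated lamin) and NAP1L1 had log2 ratios of -0.70 and -0.61. The lower LNCaP probe was also that of NAP1L1, which read 3222 in untreated LNCaP and 11.48 (not well above background) with ATO, 3699 in untreated PC3 and 2342 with ATO, and whether that single spot failed was not tested. The PC3 count of higher probes was 21 with scaling to the array median and 3 with spike-in scaling.

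**Figure D4:**
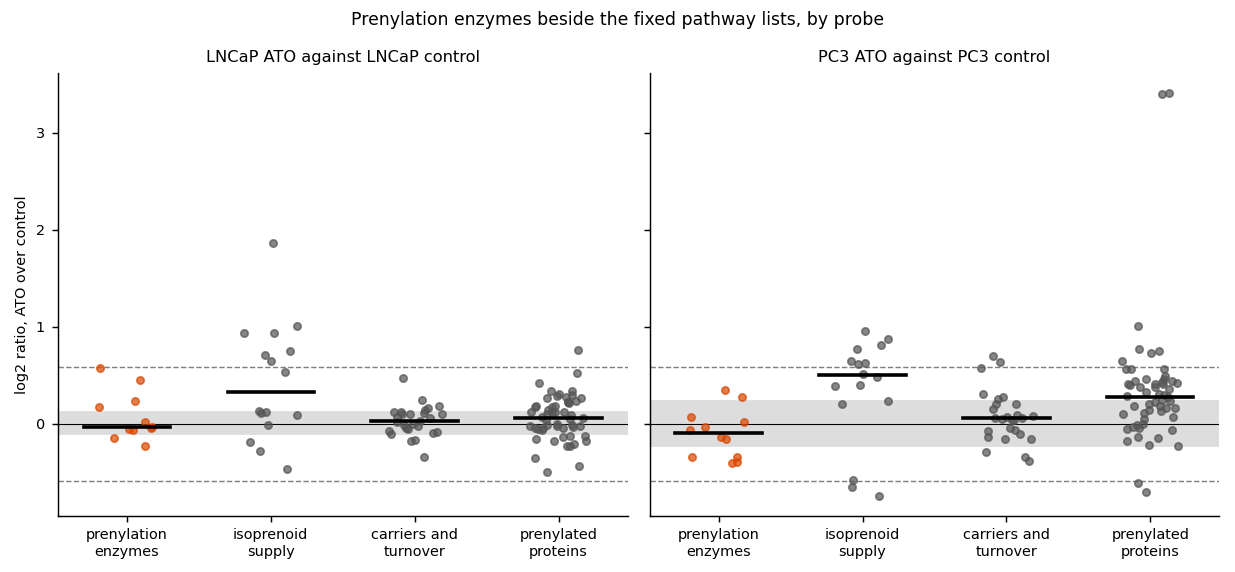
Log2 ratio of ATO to control (vertical axis) for each probe of the prenylation enzymes and of the 3 lists, in LNCaP and in PC3, over probes well above background on both arrays, so that ICMT and the NAP1L1 probe in LNCaP are not drawn. Black bars are medians, the grey band is the interquartile range of all probes and dashed lines show 1.5-fold. The supply list has medians of 0.33 and 0.50, the prenylation enzymes -0.03 and -0.10, and the top 2 points in PC3 are the RHOB probes.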

How the data were processed

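The deposited scanner files hold, per the file headers, spot intensity from Agilent Feature Extraction 9.5.3.1, with a fitted background subtracted and values not above background replaced by a surrogate. A second deposited table, from the authors, gives that intensity as a ratio to the 75th percentile of the array and served as an alternative. Coordinates are given as the files state them, on hg18. RefSeq names of GRCh38.p14 were used for names only, and the accessions of all 13 prenylation probes matched the same symbol. The scanner software named in the labels gives the well above background calls.

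In R 4.3.3 with limma 3.58.1 and in Python 3.11.15 with pandas 2.3.3 and numpy 2.4.6, spots with an outlier call were dropped, copies of a probe were averaged as log2 intensity, and each array was centred on its 75th percentile. A probe was compared where it was well above background on at least 1 array, and was counted at 1.5-fold within a line and 2-fold between the untreated lines. Where it was well above background on 1 array only, its value there was set against the higher of its own dim value and the lowest value of any probe well above background on the dim array, and is given as "at least". For limma (lmFit and eBayes, two-sided, cell line as a block), the probes tested were those detected in this way in both controls or in both treated samples, and p-values were adjusted over all of them. The code was tested on simulated data. All 10 genes are named with every probe. From each list, genes were named by the 3 highest and 3 lowest ratios per line, together with a few genes fixed by name (FDPS, GGPS1, IDI1 and RHOB among them), and not all so chosen are reported here. RAP1GDS1, the other PDSS1 probe and the LNCaP reading of NAP1L1 were added after their values were seen. The members, lists and thresholds were chosen with earlier results of these data known. Alternatives were scaling to the median or to spike-in controls, quantile and cyclic loess normalization, normexp correction with an offset of 50, the deposited ratios, outlier spots kept, bright areas left out, the brightest probe of each gene, no filter and other thresholds. Counts of the lists under these were added after the data were seen.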

Additional observations from a re-analysis of the deposited data

How the results depend on the processing

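Of the counts and medians over the prenylation probes, 57 values under alternative settings stayed close to those reported and 10 moved. The 57 include the limma counts, which were 0 under every setting. Those could hardly move, since under most settings no probe of any gene passed the adjusted p. In LNCaP, cyclic loess brought 1 probe (CHM) past 1.5-fold. In PC3 the count was 0 with normexp correction, without bright areas, at a 2-fold threshold and when detection on both arrays was required, and 4, all lower, with spike-in scaling, which moved the median of all probes to -0.33. Apart from normexp, these counts of 0 follow from the ICMT reading itself and are not separate checks. Its spot was bright, its bound was 1.83-fold and it was detected in PC3 ATO alone. The PC3 median of the prenylation probes was 0.10 with scaling to the array median (all probes 0.20) and -0.44 with spike-in scaling. Between the untreated lines 8 probes differed 2-fold with median scaling (all probes -0.55) and 1 at 4-fold. No called ratio of a single probe reversed, and the bound of ICMT, the only ratio called for ATO, ran from 0.48 to 1.10 on the log2 scale. Ratios below the threshold did change sign in places. In PC3 those of FNTA, FNTB and CHML came to -0.27, -0.05 and -0.32 with spike-in scaling. That of ZMPSTE24 came to 0.04 and that of RCE1 to 0.16 with scaling to the array median.

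Over all probes, 828 were counted in LNCaP, against 430 with normexp, 455 without bright areas and 14712 without a filter, and 3166 in PC3, against 2042, 1892 and 6215, and 5072 with spike-in scaling. The share of higher calls among these was 57.1% in LNCaP (42.6% with spike-in scaling, 45.3% with normexp, 44.2% without bright areas and 88.3% without a filter), 44.6% in PC3 (70.7% with median and 9.23% with spike-in scaling) and 51.7% between the untreated lines (31.6% and 62.3%). By limma 5 probes passed an adjusted p of 0.05 with median scaling and 2 with spike-in scaling, none of them a prenylation probe (0), whose smallest adjusted p ran from 0.483 to 0.921. The limma test paired ATO and control within each line, and the labels give no replicate numbers for any other pairing. Dim probes limit what can be read: ICMT and the dimmer CHM probe were not well above background in LNCaP.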
